A study of Mus musculus with 12 samples.

Results

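Kruppel-like factors were followed through the transition of naive mouse embryonic stem cells (ESCs) to epiblast-like cells (EpiLCs), in nascent and in total RNA. The genes described are the 10 listed members Klf2, Klf3, Klf4, Klf5, Klf6, Klf7, Klf9, Klf10, Klf13 and Klf16, found by matching the gene identifiers of the deposited counts to symbols, out of 51467 genes in the table. All 10 passed the filter on low values (at least 3 CPM, reads scaled to a common library size, in at least 3 libraries), which left 14731 genes to test. ESCs were grown in serum with LIF and 2i, a MEK inhibitor (PD0325901) and a GSK3 inhibitor (CHIR99021), and EpiLCs were taken about 56 h after washing off LIF and 2i. Both cell types were given 500 µM 4-thiouridine (4sU) for 30 min, and the extracted RNA was divided into biotin-selected 4sU RNA, which was made during the pulse and is called nascent here, and rRNA-depleted total RNA. Each cell type and assay had 3 libraries, 12 in all. The labels give no genotype or strain, and the study lists an ESC line with mCherry and GFP microRNA reporters for this differentiation. The study calls its libraries biological replicates, and the labels number them without saying which culture each came from, so p-values measure the spread between these libraries.

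Kruppel-like factors bind GC-rich and CACCC-type sequences through zinc fingers at their carboxyl end, and they differ in the parts that recruit partners. Klf2, Klf4 and Klf5 are activators that hold ESCs in the naive state, with Klf4 known as a target of LIF and STAT3 signalling and as a reprogramming factor. Klf3 recruits the corepressor CtBP, whereas Klf9, Klf10, Klf13 and Klf16 form a subgroup that binds the corepressor Sin3. Klf6 is a widely expressed, quickly inducible member, and Klf7, its closest relative, is known for its part in axon growth.

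Libraries held 3097693 to 5385644 counted reads for 4sU and 9300845 to 21975684 for total RNA, and the fewest reads of a member were in EpiLC total RNA (16 to 25 for Klf4). The 2 ESC libraries numbered 3 stood apart from their group, with a root mean square difference in log2 CPM of 0.472 to 0.546 from the other ESC libraries of the same assay, against 0.192 to 0.380 for every other pair within a group. Values without them are given where they matter. Markers matched the labels: 6 of 7 naive markers fell in both assays (all but Dppa3) and 5 of 5 formative markers rose in both. Summed levels of the markers of other cell types were higher in EpiLC total RNA for fibroblasts (14.9 to 19.2 CPM over 8 genes, against 4.6 to 8.1 in ESCs, where Postn and Dcn were at 0) and for primitive endoderm (18.7 to 21.4 against 5.12 to 12.1 CPM over 7 genes). For mesendoderm the ranges overlapped, at 20.4 to 31.4 and 17.2 to 28.2 CPM over 5 genes, with Lhx1 at 0 in ESC total RNA. Eomes made up the largest part of these sums, so they do not show the course of the other genes. In nascent RNA the EpiLC and ESC ranges were 4.5 to 5.67 and 2.47 to 3.54 CPM for fibroblasts, 31.3 to 42.6 and 14.6 to 16.6 CPM for primitive endoderm, and 45.6 to 97.3 and 21.5 to 28.6 CPM for mesendoderm. Of 3 mesendoderm markers tested, 2 were called higher in total RNA (T and Mixl1), 1 in nascent RNA (T), and 0 lower in either. Eomes was not called, and the mean of Gsc, which was not tested, was lower in EpiLC total RNA. Of 3 fibroblast markers tested, 2 were called higher in both assays (Dcn and Col1a2) and 0 lower. The mean of Col6a3, which was not tested, was lower in EpiLC total RNA. The primitive endoderm markers did not move together. Of 4 tested, 2 were called higher in total RNA (Dab2 and Gata4) and 1 lower (Sox17). In nascent RNA 1 was called higher (Dab2) and 1 lower (Sox17). Mean Dab2 alone went from 0.651 CPM in ESC total RNA to 11.2 CPM in EpiLC total RNA, so the sum does not show a rise of the whole list. The part of cells of these other types in the changes below was not tested.

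To ask which family members a cell of each type holds, levels were set on a common scale, CPM after TMM scaling (a trimmed mean that corrects for library composition), divided by the kilobases of counted exons. In ESC nascent RNA, Klf2 led with 458 ± 26.1 CPM per kb (SD, n = 3), above Klf5 (285 ± 74.2) and Klf4 (242 ± 31.5), whose ranges overlapped. In ESC total RNA, Klf2 (82.2 ± 13 CPM per kb), Klf9 (72.6 ± 1.86) and Klf4 (71.2 ± 5.93) could not be ranked, since neighbouring ranges overlapped, and they lay between the 91.6th and 92.8th percentiles of the genes tested. Klf7 was last in both ESC assays, at 5.77 ± 2.28 CPM per kb in nascent and 1.58 ± 0.698 in total RNA. Klf5, second in ESC nascent RNA, was 6th in ESC total RNA at 19.9 ± 4.89 CPM per kb, where it did not differ beyond the spread from Klf16 (22.0 ± 0.708) or Klf6 (16.1 ± 3.08).

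The order was different in EpiLCs. Klf6 came first in both assays, with 407 ± 38.9 CPM per kb in nascent and 77.5 ± 2.88 in total RNA, and its range did not meet that of the next member in either. Next in nascent RNA were Klf10 (81.7 ± 2.06) and Klf5 (79.7 ± 10.7), with overlapping ranges, and next in total RNA were Klf9 (43.2 ± 1.85) and Klf10 (25.6 ± 0.699), whose ranges were apart. Klf2 and Klf4 took the last 2 places in both, at 1.54 ± 0.279 and 0.726 ± 0.194 CPM per kb in total RNA.

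The summed level of the 10 genes fell from 1438 ± 138 to 743 ± 48.3 CPM per kb in nascent RNA and from 366 ± 20.5 to 204 ± 4.05 in total RNA. Within that sum, Klf2, Klf4 and Klf5 together made up 68.5% ± 0.761 in ESC nascent RNA and 12.9% ± 0.699 in EpiLC nascent RNA. Klf6 and Klf7 went the other way, from 4.74% ± 1.37 to 57.5% ± 1.81, and nearly all of that was Klf6 (54.8% ± 2.07 in EpiLCs). In total RNA the share of Klf2, Klf4 and Klf5 was 47.3% ± 0.647 in ESCs and 3.26% ± 0.378 in EpiLCs, and that of Klf6 and Klf7 was 4.88% ± 1.35 and 41.2% ± 0.651. Klf9 held 19.9% ± 1.40 of the total RNA sum in ESCs and 21.2% ± 1.28 in EpiLCs, a difference within the spread.

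**Figure D1:**
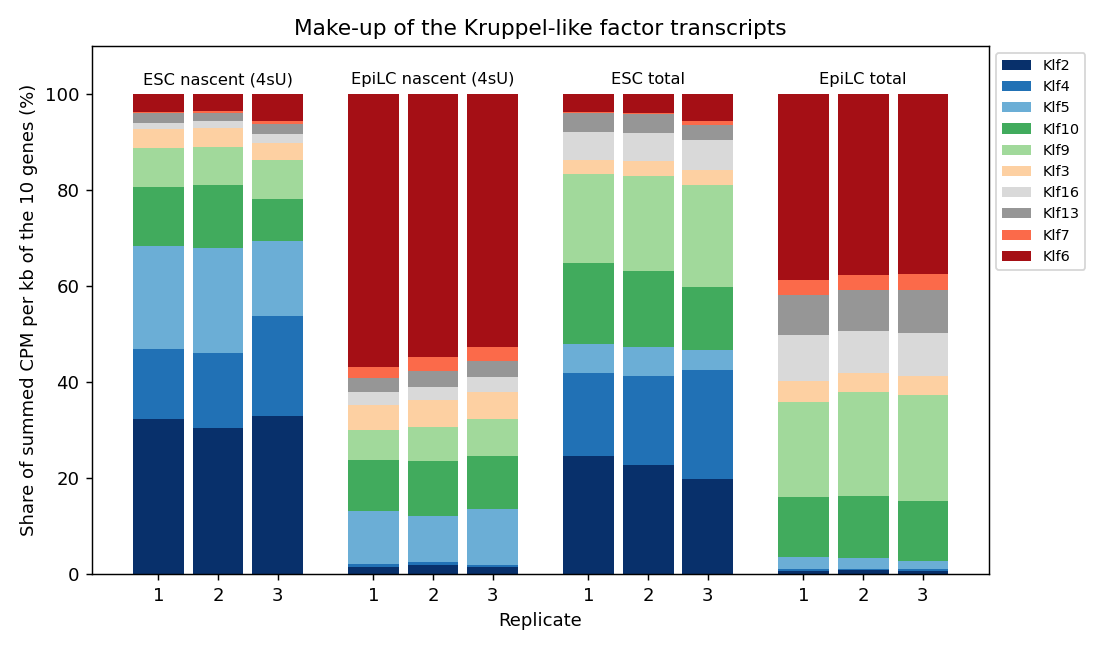
Share of each gene (%) in the summed CPM per kb of the 10 Kruppel-like factors, 1 stacked bar per library, in the 4 groups of 3 replicates. Blue shades (Klf2, Klf4, Klf5) fill most of the ESC nascent bars (mean 68.5%), and dark red (Klf6) fills most of the EpiLC nascent bars (mean 54.8%).

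Changes were then tested gene by gene with limma-voom over all 14731 genes, and a gene was called where its log2 change exceeded 1 in size and its p, adjusted by Benjamini and Hochberg's method, was below 0.05. In total RNA 4 of the 10 members fell (Klf2, Klf4, Klf5 and Klf10) where 11.2% of all genes tested were called lower, and 2 rose (Klf6 and Klf7) where 16.3% of all genes were called higher. In nascent RNA 4 members fell (Klf2, Klf4, Klf5 and Klf9) against 13.5% of all genes, and the same 2 rose against 11.9% of all genes. The median log2 change over the members was -0.56 in total and -0.69 in nascent RNA, against 0.020 and -0.086 over all genes tested. In bulk RNA a lower level in every cell and fewer cells that hold the transcript cannot be told apart.

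Every EpiLC library lay below every ESC library for 7 members in total RNA and 7 in nascent RNA, and every EpiLC library lay above every ESC library for 3 members in total RNA and 2 in nascent RNA. Such separation was common: among all genes tested it was found in 35.1% (below) and 33.5% (above) for total RNA, and in 34.1% (below) and 26.6% (above) for nascent RNA. Klf16 in nascent RNA was the member whose libraries overlapped.

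**Figure D2:**
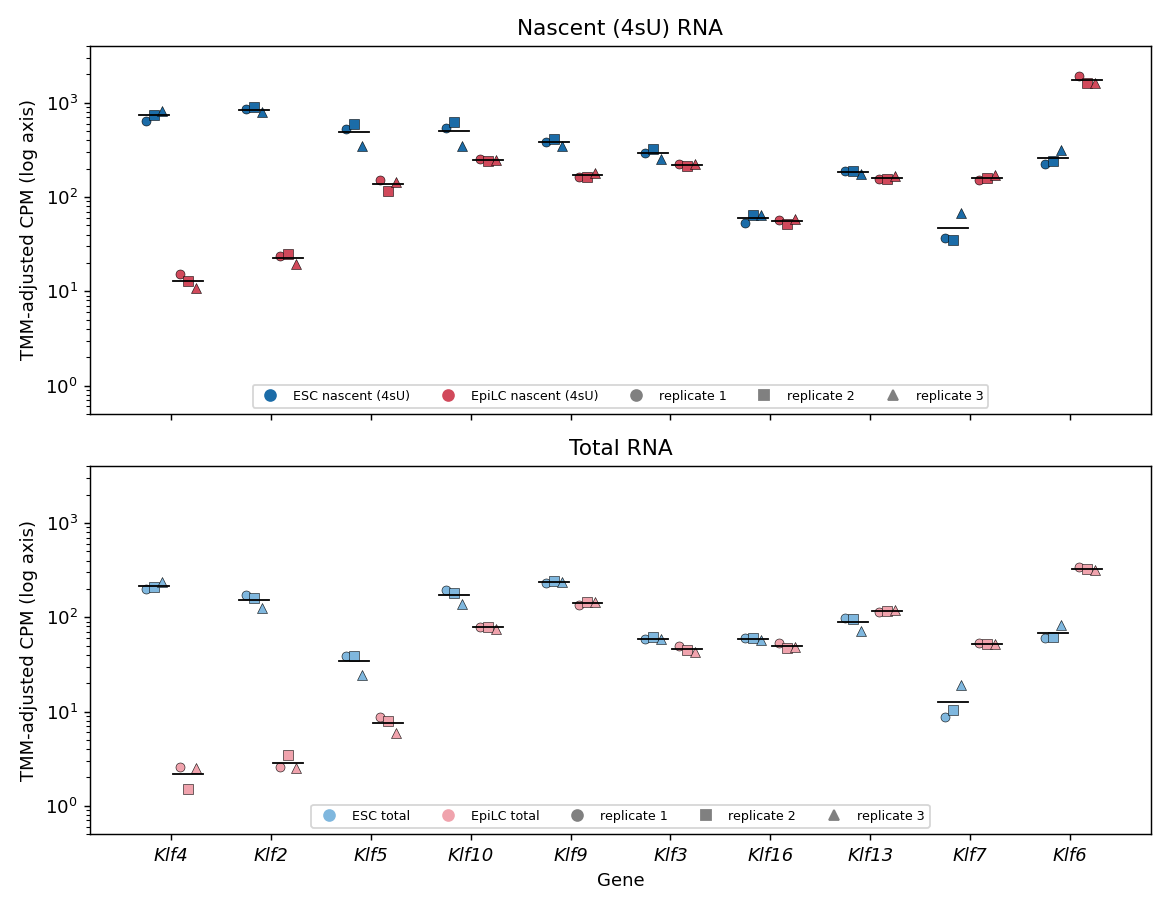
TMM-adjusted CPM (log axis) of each gene in every library, nascent RNA above and total RNA below, with ESC in blue, EpiLC in red, the replicate shown by the marker and the group mean by a black line. Klf4 and Klf2 drop from 125 to 236 CPM in ESC total RNA to 1.52 to 3.43 CPM in EpiLC total RNA, Klf6 and Klf7 rise, and ESC replicate 3 (triangles) lies apart for Klf5, Klf10 and Klf7.

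The largest fall among the members was that of Klf4 (ENSMUSG00000003032.8, chr4:55527143-55532466, minus strand, mm10). Its level in ESC nascent RNA was 635, 741 and 826 CPM in replicates 1 to 3, and in EpiLC nascent RNA it was 15.2, 13 and 10.7 CPM. In total RNA the ESC libraries held 200.5, 211 and 236 CPM and the EpiLC libraries 2.58, 1.52 and 2.5 CPM. The groups were far apart in both assays, and the EpiLC total values rest on 16 to 25 reads per library. The log2 change was -6.63 ± 0.27 (SE) in total RNA (98.9-fold lower, adjusted p = 9.46e-11, limma-voom) and -5.80 ± 0.19 in nascent RNA (55.6-fold lower, adjusted p = 5.97e-11).

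Klf2 (ENSMUSG00000055148.7, chr8:72319033-72321656, plus strand) followed the same course. ESC nascent RNA held 851, 890.2 and 794 CPM and EpiLC nascent RNA 23.4, 25.1 and 19.4 CPM. ESC total RNA held 172, 158 and 125 CPM, and EpiLC total RNA 2.58, 3.43 and 2.5 CPM from 23 to 36 reads per library. ESC replicate 3 was the lowest of its group in both assays, and still far above every EpiLC library. The log2 change was -5.72 ± 0.25 in total RNA (52.7-fold lower, adjusted p = 1.38e-10, limma-voom) and -5.20 ± 0.16 in nascent RNA (36.9-fold lower, adjusted p = 3.22e-11).

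Klf5 (ENSMUSG00000005148.7, chr14:99298691-99313405, plus strand) fell less far than its naive partners. Its nascent level was 526, 598 and 350 CPM in ESCs and 150, 116 and 146 CPM in EpiLCs. Its total RNA level was 39.1, 39.1 and 24.5 CPM in ESCs and 8.75, 8 and 6 CPM in EpiLCs. ESC replicate 3 was again the lowest of its group in both assays, and the groups did not overlap. The log2 change was -2.19 ± 0.31 in total RNA (4.56-fold lower, adjusted p = 2.49e-05, limma-voom) and -1.83 ± 0.19 in nascent RNA (3.55-fold lower, adjusted p = 2.93e-06), and without both ESC replicate 3 libraries it was -2.39 and -2.07.

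Klf6 (ENSMUSG00000000078.7, chr13:5861482-5870394, plus strand) showed the largest rise of the family. Its nascent level was 224, 240 and 313 CPM in ESCs and 1910, 1625 and 1626 CPM in EpiLCs, and its total RNA level was 59.6, 61.5 and 83.0 CPM in ESCs and 341, 325 and 317 CPM in EpiLCs. All EpiLC libraries lay above all ESC libraries, and ESC replicate 3 was the highest of its group in both assays. The log2 change was 2.30 ± 0.13 in total RNA (4.91-fold higher, adjusted p = 2.02e-09, limma-voom) and 2.75 ± 0.13 in nascent RNA (6.72-fold higher, adjusted p = 1.04e-09).

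Klf7 (ENSMUSG00000025959.13, chr1:64029447-64121491, minus strand) rose from a low level. In nascent RNA it stood at 36.6, 35.1 and 67.6 CPM in ESCs and at 151, 159 and 170 CPM in EpiLCs. In total RNA it stood at 8.74, 10.3 and 19.2 CPM in ESCs and at 52.9, 52.4 and 51.6 CPM in EpiLCs. ESC replicate 3 was the highest of its group in both assays and still below every EpiLC library. The log2 change was 2.21 ± 0.22 in total RNA (4.61-fold higher, adjusted p = 7.66e-07, limma-voom) and 1.89 ± 0.22 in nascent RNA (3.71-fold higher, adjusted p = 5.63e-06), and without both ESC replicate 3 libraries it was 2.44 and 2.13.

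Among the members that bind Sin3, Klf10 and Klf9 were lower in EpiLCs and each was called in 1 of the assays. Klf10 (ENSMUSG00000037465.9, chr15:38294413-38300707, minus strand), known as an early gene induced by TGF-beta, had 195, 182 and 137 CPM in ESC total RNA and 79.3, 79.1 and 75.5 CPM in EpiLC total RNA. Its nascent level was 537, 631 and 347 CPM in ESCs and 255, 243 and 248 CPM in EpiLCs. Total RNA fell by 1.13 ± 0.18 on the log2 scale (adjusted p = 6.18e-05, limma-voom). The nascent change of -0.99 ± 0.18 (adjusted p = 0.000303) fell just short of the fold threshold, and it was called at -1.25 without ESC 4sU replicate 3 (adjusted p = 3.59e-06), at -1.15 with sample quality weights and at -1.02 with edgeR's quasi-likelihood test.

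Klf9 (ENSMUSG00000033863.1, chr19:23141226-23166911, plus strand), known as a gene induced by glucocorticoid and thyroid hormone, had 382, 411 and 344 CPM in ESC nascent RNA and 163, 163 and 181 CPM in EpiLC nascent RNA. Its total RNA level was 230.1, 242 and 239 CPM in ESCs and 134, 144 and 144 CPM in EpiLCs, a narrow spread in each group with no overlap. Nascent RNA fell by 1.17 ± 0.08 on the log2 scale (2.24-fold lower, adjusted p = 5.96e-08, limma-voom). The total RNA change was -0.75 ± 0.08 (adjusted p = 8.40e-07), under the fold threshold.

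The remaining 3 members changed by less than the fold threshold in both assays. Klf3 (ENSMUSG00000029178.14, chr5:64803388-64832901, plus strand) had log2 changes of -0.38 ± 0.10 in total and -0.40 ± 0.09 in nascent RNA (adjusted p = 0.00341 and 0.00214, limma-voom). Klf16 (ENSMUSG00000035397.8, chr10:80567124-80577321, minus strand) had -0.26 ± 0.09 and -0.11 ± 0.11 (adjusted p = 0.0186 and 0.429). Klf13 (ENSMUSG00000052040.10, chr7:63886351-63938915, minus strand) was the member whose changes had opposite signs, 0.40 ± 0.10 in total and -0.21 ± 0.11 in nascent RNA (adjusted p = 0.00359 and 0.118).

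The levels of Klf13 show where that difference lay. Its nascent RNA was 189, 188 and 176 CPM in ESCs and 156, 156 and 167 CPM in EpiLCs, and its total RNA was 99.4, 96.1 and 71.3 CPM in ESCs and 115, 116 and 120 CPM in EpiLCs. EpiLC libraries were all lower in nascent RNA and all higher in total RNA, with ESC replicate 3 the lowest ESC library in each. Without both ESC replicate 3 libraries the total RNA change was 0.25 (adjusted p = 0.000863), a smaller value by over 1.5 times.

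**Figure D3:**
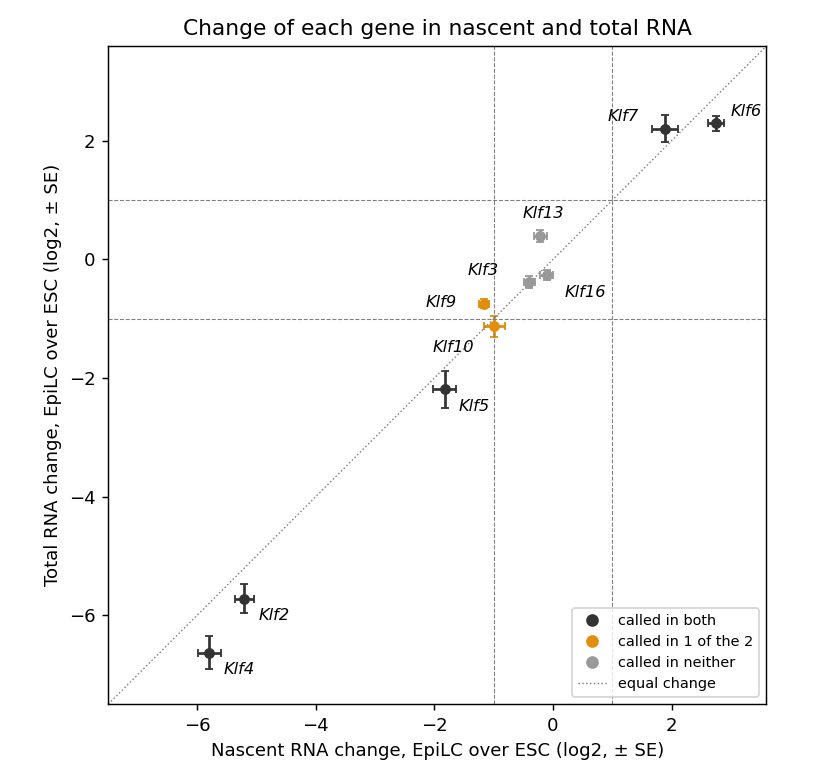
Log2 change of each gene in EpiLCs against ESCs, nascent RNA on the x axis and total RNA on the y axis, with bars for the SE. Dashed lines mark the fold threshold of 1 and the dotted line equal change. Points run along the dotted line from Klf4 (-5.80 and -6.63) to Klf6 (2.75 and 2.30). Klf13, Klf9 and Klf7 lie above it, Klf4, Klf2, Klf6 and Klf5 lie below it, and Klf3, Klf10 and Klf16 lie closest to it.

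To ask whether the change in total RNA went beyond the change in nascent RNA, the difference between both changes was tested as the interaction of cell type and assay. No member was called, where 0.305% of all genes were called lower and 1.24% higher. The count was also 0 with edgeR's quasi-likelihood test and with DESeq2, and 4 members had an unadjusted p under 0.05 (Klf4, Klf6, Klf9 and Klf13). The median over the members was -0.15, against 0.11 over all genes tested. The 95% interval of the log2 stability change was widest for Klf5 (-1.15 to 0.43), followed by Klf4 (-1.55 to -0.11), Klf7 (-0.35 to 0.98) and Klf2 (-1.15 to 0.12). The intervals of Klf2, Klf4 and Klf5 held a change as large as the fold threshold of 1, and those of the other 7 members did not.

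Klf13 and Klf9 were the members with an adjusted p under 0.05 in this fit. The stability change was 0.61 ± 0.15 for Klf13 (95% interval 0.29 to 0.93, adjusted p = 0.0360, limma-voom) and 0.42 ± 0.11 for Klf9 (0.18 to 0.66, adjusted p = 0.0494), both under the fold threshold. Over 21 alternative fits the adjusted p ran from 0.000528 to 0.201 for Klf13 and from 0.000885 to 0.285 for Klf9, while the change stayed between 0.47 and 0.69 and between 0.32 and 0.51. Klf4 (-0.83 ± 0.34, adjusted p = 0.157) and Klf6 (-0.45 ± 0.18, adjusted p = 0.156) had the largest negative values with an interval below 0, and without both ESC replicate 3 libraries their adjusted p was 0.0420 and 0.00776. In the fit with same-numbered libraries of a cell type as a block, the replicate block by culture, Klf6 also passed the adjusted p threshold (-0.46, adjusted p = 0.00948, limma-voom), beside Klf13 (0.61, adjusted p = 0.00705) and Klf9 (0.42, adjusted p = 0.0233), while Klf4 had an adjusted p of 0.0562 and no member passed the fold threshold.

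Relative mRNA stability, the log2 ratio of total to nascent CPM for libraries of the same number, was low for the 10 members in both cell types. Each extract was split for both assays, and the ratio is called a culture value here, although the labels do not say that a number marks a shared extract, and it is relative because each library is scaled to its own composition. The median over the members was -1.82 in ESCs and -1.97 in EpiLCs, against 0.076 over 14365 genes and 0.17 over 14405 genes with reads in every library of the cell type. All 10 members lay below the median of all genes in both cell types, and 7 of 10 lay below the 25th percentile in each.

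Klf5 was the least stable member. Its log2 ratio was -3.75, -3.93 and -3.83 in ESC cultures 1 to 3 and -4.10, -3.86 and -4.60 in EpiLC cultures, which put it at percentile 4.9 and 0.5 of all genes and at percentile 0.3 and 0.1 of the protein-coding genes. Klf2 had -2.31, -2.49 and -2.66 in ESCs and -3.18, -2.87 and -2.96 in EpiLCs. Klf4 had -1.66, -1.81 and -1.81 in ESCs and -2.55, -3.09 and -2.10 in EpiLCs, where its spread was the widest of the family (SD 0.495). Klf6 had a mean of -1.93 ± 0.03 in ESCs and -2.39 ± 0.09 in EpiLCs.

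At the stable end stood the Sin3-binding members. Klf16 had a mean log2 ratio of -0.03 ± 0.19 in ESCs and -0.19 ± 0.09 in EpiLCs, Klf9 had -0.67 ± 0.13 and -0.26 ± 0.08, and Klf13 had -1.07 ± 0.20 and -0.45 ± 0.03. Klf10, of the same subgroup, stood lower at -1.53 ± 0.23 and -1.67 ± 0.05. EpiLC cultures were all above ESC cultures for Klf7, Klf9 and Klf13, all below for Klf2, Klf4 and Klf6, and overlapped for Klf3, Klf5, Klf10 and Klf16. The share of all genes with such separation in relative stability was not counted.

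The 3′ UTRs of the members were read from GENCODE M21 (GRCm38), since this region carries the elements that set how fast many short-lived transcripts are removed. The members had a median 3′ UTR of 2454 bases against 1066 bases over 12158 tested genes with a 3′ UTR, and 8 of 10 were above that median. The AU-rich heptamer UAUUUAU, part of the element bound by decay factors, was searched on the transcript strand. It occurred in 6 of 10 members (7 sites), compared with 29.3% of all genes and 44.4% of the 6325 genes with a 3′ UTR over 1000 bases. Longer 3′ UTRs have more places for this heptamer too, and no comparison with genes matched to the members in length was made. The sites of the members called in total RNA are shown with the heptamer in capitals, and a match is a description and not a shown binding site.

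Klf2, chr8:72320988-72321016, plus strand: aaacagacugcUAUUUAUuggaccuuagg
Klf5, chr14:99314659-99314687, plus strand: uguuuuaucauUAUUUAUuuugugguaau
Klf6 site 1, chr13:5868490-5868518, plus strand: gcuacgucucuUAUUUAUgccuugaggac
Klf6 site 2, chr13:5868943-5868971, plus strand: cacaccggcugUAUUUAUuauguaacauu
Klf7, chr1:64029784-64029812, minus strand: gccuucucuggUAUUUAUaauauaucaca
Klf10, chr15:38294920-38294948, minus strand: cagugucuuuuUAUUUAUaggaguuuuuc

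Klf16 held a site as well, while Klf3, Klf4, Klf9 and Klf13 held none. The members with a site included the least stable (Klf5) and the most stable (Klf16), and Klf4, with no site, and Klf2, with 1, both fell. A link of the sites to stability or to the changes was not tested. The counted exons of Klf5 left out 1631 of the 3352 bases of this transcript, the site among them, and those of Klf9 left out 1223 of 4486 bases, so that their values come from the upstream exons. For the other 8 members no base of the transcript was left out.

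ESCs are also known for a microRNA family from the miR-290 cluster whose members share 1 seed. The mature sequences, from RefSeq on GRCm38.p6, are shown with the seed (bases 2 to 8) in capitals, since the shared seed defines the site searched.

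miR-291a-3p, chr7:3218968-3218989: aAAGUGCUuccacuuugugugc
miR-294-3p, chr7:3220691-3220712: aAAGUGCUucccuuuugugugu
miR-295-3p, chr7:3220815-3220837: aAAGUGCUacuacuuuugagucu

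The matching heptamer AGCACUU was found in the 3′ UTR of 4 of 10 members, Klf3, Klf6, Klf7 and Klf13, compared with 16.5% of all genes and 26.9% of those with a 3′ UTR over 1000 bases. The 3′ UTRs of these genes were long, 3111 to 6266 bases (86.6th to 98.2nd percentile of length). A longer 3′ UTR has more places for a match, and no comparison with genes of such length was made. Both members that rose are among the 4, and Klf13 was the member with more than 1 site. The sites are shown for these 3 members with the heptamer in capitals.

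Klf6, chr13:5869925-5869953, plus strand: uucaaaauccuAGCACUUgauuugcugga
Klf7, chr1:64031039-64031067, minus strand: ggaucuuugggAGCACUUgagauggacaa
Klf13 site 1, chr7:63890956-63890984, minus strand: cagaccaugggAGCACUUgccuauggaac
Klf13 site 2, chr7:63889065-63889093, minus strand: uuuccaaagagAGCACUUaauuuaauuuu

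Of these genes Klf13 had a stability change of 0.61 and Klf6 of -0.45 (adjusted p = 0.0360 and 0.156, limma-voom). Klf7 had 0.31 ± 0.31 and Klf3 had 0.017 ± 0.13 (adjusted p = 0.595 and 0.959). Klf13 alone of these genes had an adjusted p under 0.05 in this fit, and a link of the sites to stability was not tested.

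Promoter windows around the transcription start (RefSeq) were held for 7 of the 10 members. The GC box GGGCGG, the motif of the wider Sp and Kruppel-like family, was searched on either strand. It was counted 6 times for Klf3, 4 times for Klf4, 3 times for Klf13, 2 times for Klf2, and once each for Klf6 and Klf7. Of 32851 promoters, 35.7% held it and 10.7% held it 3 or more times. It was not found for Klf9, whose window alone among the 7 held TTCNNNGAA, the core of STAT sites, found in 8.3% of promoters. Members that rose and members that fell both held GC boxes. CACCC on either strand was counted 5 times for Klf3, 3 times for Klf7 and once each for Klf2, Klf9 and Klf13. It was not found for Klf4 or Klf6, and 57.5% of promoters held it.

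Of the rest of the family, Klf18 was not matched, Klf1, Klf14 and Klf17 had means of at most 2.90 CPM in every group and did not pass the filter, and 4 genes were tested. Klf8, a repressor that binds CtBP, fell in both assays (-2.06 ± 0.10 in total and -1.81 ± 0.15 in nascent RNA, adjusted p = 6.30e-10 and 2.43e-07, limma-voom), from 83.9 ± 9.43 to 20.0 ± 1.38 CPM in total RNA. Klf15, known for its part in metabolism, fell as well (-1.92 ± 0.13 and -1.89 ± 0.20, adjusted p = 1.45e-08 and 3.27e-06). Klf11 and Klf12 were not called in either assay, and none of the 4 had a called stability change.

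Partners and inputs of the family were also examined. Of 7 tested Sp factors, which bind the same GC boxes, Sp8 was called higher in both assays (2.14 ± 0.28 in total and 2.71 ± 0.32 in nascent RNA, adjusted p = 9.56e-06 and 8.16e-06, limma-voom), and no other was called, where 16.3% and 11.9% of all genes were called higher. Of 8 cofactors (CtBP, Sin3, histone deacetylase and acetyltransferase genes), the acetyltransferase gene Ep300 was called higher in total RNA (1.08 ± 0.12, adjusted p = 2.85e-06) and none in nascent RNA. The corepressor genes Ctbp1, Ctbp2, Sin3a and Sin3b had log2 changes between -0.36 and 0.32 in total RNA.

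Of 6 genes of the LIF pathway, 4 were called lower in both assays, namely the receptor genes Lifr and Il6st, the transducer Stat3 and its target Socs3. In total RNA their log2 changes were -2.80 ± 0.10 for Lifr, -1.26 ± 0.13 for Il6st, -2.62 ± 0.10 for Stat3 and -2.66 ± 0.13 for Socs3. Over all genes tested, 11.2% were called lower in total and 13.5% in nascent RNA. Pim1 went the other way, under the fold threshold (0.63 ± 0.09 in total and 0.78 ± 0.10 in nascent RNA), and Jak1 was not called in either assay. Socs3 was also called lower in stability (-1.44 ± 0.19, adjusted p = 0.00189, limma-voom), which none of the 10 Kruppel-like factors was. Of 8 genes that respond early to ERK, which 2i blocks, Dusp6 was called higher in both assays (3.79 ± 0.34 in total RNA). Egr1 (2.56 ± 0.82) and Ier3 (1.29 ± 0.18) were called higher in nascent RNA alone, and Egr1 ran from 24.5 to 718 CPM within ESC nascent RNA. Fos, Ier2, Spry4, Etv4 and Etv5 were not called in either assay. Over all genes tested, 16.3% were called higher in total and 11.9% in nascent RNA.

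The nearest profiles over the 12 libraries were sought among tested genes with a symbol, with the members left out. Nearest to Klf4 was Tbx3, a naive T-box factor, with a root mean square difference of 0.469 in centred log2 CPM. Next came 2410137M14Rik (0.695). Tbx3 was also among the 2 nearest genes to Klf2 (0.816), after the long non-coding gene C78283 (0.759). The nearest to Klf6 were Dusp8 (0.263) and Tgfb1i1 (0.284), and to Klf7 Prag1 (0.198) and Hivep2 (0.230). For Klf5 they were Gm43314 (0.540) and Gm48353 (0.563), both of the annotation class TEC, in which transcripts await evidence. For the other members they were Mrpl19 (0.0562) and Ercc8 (0.0585) for Klf16, Mfap3 (0.117) and Akt1s1 (0.126) for Klf13, Zfp68 (0.118) and Snx29 (0.127) for Klf9, Snhg6 (0.122) and BC025920 (0.153) for Klf3, and Maml2 (0.173) and Cox17 (0.186) for Klf10. Between members, Klf2 and Klf4 differed by 0.550, less than Klf2 did from C78283, and Klf6 and Klf7 differed by 0.438.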

How the data were processed

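The authors trimmed single-end stranded reads with cutadapt 1.14, aligned them to mm10 with STAR 2.5.3a, kept unique alignments, and counted them over exons with featureCounts 1.5.3. Per the file headers, counting was strand-specific, over the GENCODE M14 basic annotation without rRNA genes. The deposited table holds raw counts for 51467 genes and 92 spike-in entries, which had 0 reads. Symbols came from GENCODE M21 (99.6% of identifiers).

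The filter, limma, the interaction of cell type and assay, and the fold threshold follow the study. Voom weights and TMM scaling were chosen here. All 12 libraries were fitted (limma 3.58.1, R 4.3.3, edgeR 4.0.16) at 4 group means, and p-values were adjusted over all 14731 genes. The script was tested on simulated data. Alternatives covered scaling, the filter, edgeR, DESeq2 1.42.0, quality weights, a replicate block, thresholds and libraries left out. Relative stability, levels per kb and sequence matches were described with no test. All 10 members are named with their 2 nearest genes that are not members, and of the other lists called genes could be named. The members and lists were chosen with earlier results of these data known. Reads had no molecular identifiers, so depth gives counting error only.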

Additional observations from a re-analysis of the deposited data

Results flagged for a closer look

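For 2 members the change in total RNA differed from the change in nascent RNA by the interaction test (limma-voom, adjusted p under 0.05). The difference was 0.4172 on the log2 scale for Klf9 (adjusted p = 0.0494) and 0.6111 for Klf13 (adjusted p = 0.0360). Both were under the fold threshold of 1, and ESC replicate 3 libraries, which stood apart, took part in them. Without those libraries the values were 0.51 for Klf9 and 0.52 for Klf13 (adjusted p = 0.000885 and 0.000528). These were the lowest adjusted p over 21 alternative fits. The adjusted p threshold was missed in 14 of the 21 for Klf9 and in 10 for Klf13. Single values within groups of 3 libraries were not screened for outliers.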

How the results depend on the processing

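Counts of called members kept within 1.5 times under every alternative but 1. With the adjusted p alone, 7 members in place of 4 were lower in total RNA and 2 in place of 0 had a stability change. The median relative stability moved by more than the spread between cultures with median-of-ratios scaling (-1.89 in ESCs, -2.12 in EpiLCs) and with library totals alone (-2.06 and -2.14). Such scaling shifts all genes of a library together. The Klf9 stability change missed the adjusted p threshold in 14 of 21 alternative fits, and that of Klf13 in 10 of 21. Same-numbered libraries correlated in their deviations at 0.232 to 0.484 between the ESC assays (although ESC total replicate 1 correlated better with 4sU replicate 2, at 0.374), at 0.024 to 0.102 between the EpiLC assays, and at -0.156 to 0.062 between cell types, so the numbers could pair the ESC assays, but not every pair passed 0.1 and the fit without a block was kept. With the replicate block, 4 members were lower and 2 higher in total RNA, 4 lower and 2 higher in nascent RNA, and 0 changed in stability, as with the replicate block by culture. Percentiles of stability among protein-coding genes were chosen after seeing the data. Depth limits Klf2 and Klf4 most, with 16 to 36 reads per EpiLC total library.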
